A study of Mus musculus with 8 samples.

Results

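Immunoglobulin gene segments, the genes from which antibody chains are assembled, were represented by 37 of the 35556 probe sets in the deposited table. A probe set was taken when every gene symbol in its annotation, whether 1 or several, named a heavy, kappa or lambda segment. Ighmbp2 was left out, since it shares the first letters of the heavy chain symbols but encodes a DNA-binding helicase. Each value is the RNA signal of a T cell preparation recovered at day 30 from a graft of tissue grown from human embryonic stem cells and carried by a wild-type CD1 mouse, an outbred strain. In the 4 tolerant samples the host had been injected with antibodies to CD4, CD8 and CD40L, the last being the ligand through which helper T cells license B cells and other antigen-presenting cells. In the 4 rejecting samples it was untreated. Both groups shared the strain, the graft source, the day and the selection for CD3, the signalling complex of the T cell receptor. The sources used here give neither the purity of the CD3-positive cells nor whether each sample was 1 mouse. No B cell preparation was among the samples, so how strongly these probe sets respond to antibody RNA is not shown by the arrays analysed here.

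An antibody consists of paired heavy and light chains. In a developing B cell, a variable segment is joined to joining segments, and in the heavy chain also to a diversity segment, and the joined exon is spliced to a constant segment. The heavy constant segment sets the class (Ighm for IgM, Igha for IgA, Ighg3 for IgG3), and the light chain takes either the kappa constant segment Igkc or a lambda one. Plasma cells, the secreting end stage of B cells, carry very large amounts of these transcripts, which is why immunoglobulin probe sets can serve as a sensitive measure of B lineage RNA in a preparation of other cells. In such bulk samples, fewer cells of a type and less RNA per cell cannot be told apart.

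The 37 probe sets comprised 16 for the heavy chain, 19 for the kappa chain and 2 for the lambda chain. Of these, 9 carried constant segment symbols alone, 19 carried variable or joining segment symbols alone, and 9 carried both kinds. They named 34 genes. The gene table used for names lists 395 immunoglobulin genes, of which 33 were among those named, and 5 of its 12 constant segments (Ighm, Igha, Ighg3, Igkc and Iglc1). The members are not independent measurements. The annotation rests on complementary DNA records of rearranged antibodies, so a symbol does not tell which segment the probes lie in, and 22 members shared such a record with another member, in 21 of 666 pairs.

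The arrays fell into 2 sets that cut across the groups, and values are given for each set apart. On the arrays numbered 3 and 4, between 13.3% and 17.7% of all probe sets lay above the background line of their array, against 5.80% to 8.99% on the arrays numbered 1 and 2. The background line was the 99th percentile, on each array, of the 1184 probe sets that stand for olfactory or vomeronasal receptors, which are genes of sensory neurons. It lay between 0.99 and 1.35 on the log2 scale. Actb, the cytoplasmic actin found in all cells, read 7.47 and 6.54 on tolerant arrays 3 and 4 and 6.98 and 7.82 on rejecting arrays 3 and 4. It read 1.62 and 1.76 on tolerant arrays 1 and 2 and 1.79 and 1.95 on rejecting arrays 1 and 2. What made the sets differ was not tested. Between arrays, Pearson correlations over all probe sets were 0.866 to 0.925 within the arrays numbered 3 and 4, 0.591 to 0.641 within the arrays numbered 1 and 2, and 0.552 to 0.670 between the sets.

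Nearly all values of immunoglobulin probe sets lay below the background line in both groups. Of their 296 values (37 probe sets on 8 arrays), 8 lay above the background line, or 2.70%, against 11.9% of the values of all probe sets and the 1.01% that the line leaves among the sensory receptors. Against a lower line, the 95th percentile of the sensory receptors, 39 member values were above (13.2%, and 18.9% on the arrays numbered 3 and 4), beside 5.07% of the receptors' values and 27.6% of those of all probe sets. The 8 values above the 99th percentile came from 3 probe sets. Igkv4-55, a kappa variable segment, was above the line on 6 arrays, Igkc on 1 and the probe set shared by Igkv6-14 and Igkv6-15 on 1. No member was above the line on all 8 arrays, and 34 were above it on none. Without Igkv4-55, a choice made after its values were seen, 2 of 288 values remained above the line, or 0.694%. By chain, the count was 0 of 128 values for the heavy chain, 8 of 152 for the kappa chain (5.26%) and 0 of 16 for the lambda chain.

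Array by array, the tolerant samples 1 to 4 had 0, 1, 1 and 1 members above the line, and the rejecting samples 1 to 4 had 2, 0, 1 and 2. The median of the 37 values was 0.51, 0.51, 0.36 and 0.31 on tolerant arrays 1 to 4, against 0.48, 0.48, 0.42 and 0.43 on rejecting arrays 1 to 4. That median exceeded the median of the sensory receptors of the same array by 0.13, 0.10, 0.19 and 0.16 in tolerant samples and by 0.14, 0.11, 0.16 and 0.18 in rejecting samples. The 2 groups overlapped in both measures. Among the sensory receptors the member median stood at percentiles of 68.0 to 80.6 in tolerant samples and of 68.4 to 79.1 in rejecting samples. The median of all probe sets stood at 69.9 to 91.6 in tolerant and at 72.1 to 86.7 in rejecting samples. It was above the member median on each array. The line is the same for every probe set of an array, whereas the background of a single probe set depends on its own probes, so a value below it says only that no signal was distinguishable by this line.

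**Figure D1:**
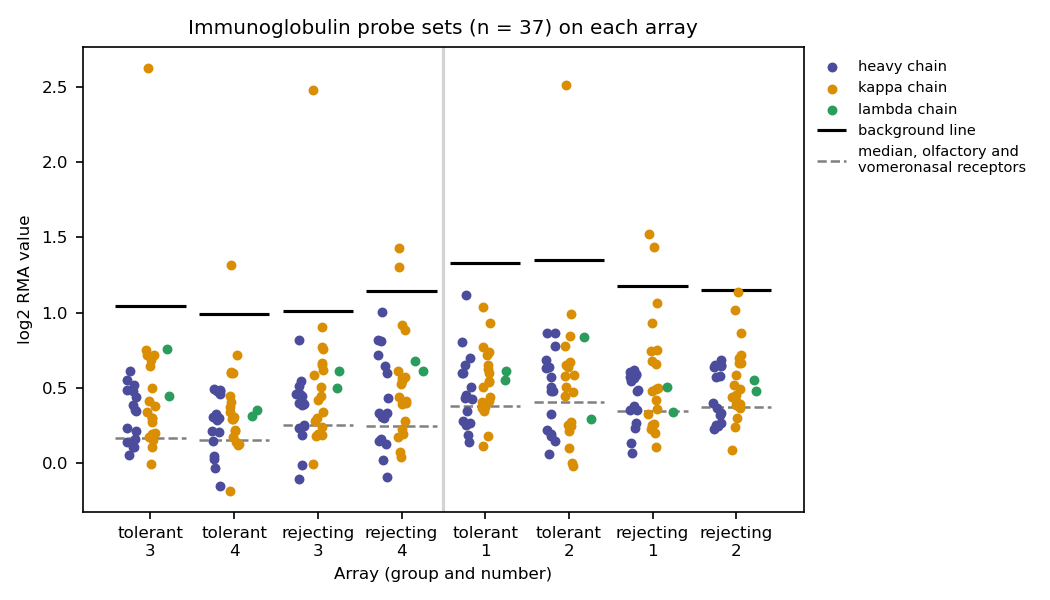
Log2 value of each of the 37 immunoglobulin probe sets (points, coloured by chain) on each array, tolerant left of rejecting within the arrays numbered 3 and 4 (left) and 1 and 2 (right). Black lines mark each array's background line and dashed lines the median of the olfactory and vomeronasal receptors; 8 points lie above the black lines, 6 of them from Igkv4-55.

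The heavy chain constant segments were represented by 8 probe sets, and none was above the background line on any array. For Ighm, the constant segment of IgM that naive B cells express first, probe set 10403054 read 0.70, 0.64, 0.61 and 0.46 in tolerant samples 1 to 4, against 0.61, 0.69, 0.82 and 0.65 in rejecting samples 1 to 4. The second Ighm probe set, 10402991, read 0.65, 0.57, 0.23 and 0.32 in tolerant samples, against 0.59, 0.33, 0.25 and 0.13 in rejecting samples. In both, the values of the groups overlapped over the 8 arrays. On the arrays numbered 3 and 4 probe set 10403054 was lower in tolerant samples without overlap, as were 22.5% of all probe sets.

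Igha, the constant segment of IgA, the class secreted at mucosal surfaces, had 3 probe sets. Probe set 10403034 read 1.12, 0.86, 0.48 and 0.48 in tolerant samples 1 to 4, against 0.57, 0.65, 0.51 and 0.72 in rejecting samples 1 to 4. Probe set 10403063 read 0.80, 0.86, 0.55 and 0.49 in tolerant samples, against 0.48, 0.57, 0.55 and 0.82 in rejecting samples. Both were higher in tolerant samples 1 and 2 than in rejecting samples 1 and 2 without overlap, whereas on the arrays numbered 3 and 4 the first was lower in tolerant samples without overlap and the second overlapped. These 2 probe sets share a record, and their values on an array differed by a median of 0.0770 and at most 0.314, so they do not count as separate evidence. Probe set 10403057 read 0.43, 0.51, 0.11 and 0.02 in tolerant samples, against 0.27, 0.25, 0.18 and 0.14 in rejecting samples. Again it was higher in tolerant samples on the arrays numbered 1 and 2 and lower on those numbered 3 and 4. Of all probe sets, 17.3% were higher in tolerant samples without overlap on the arrays numbered 1 and 2. On those numbered 3 and 4, 22.5% were lower without overlap. How many had opposite gaps in the sets was not counted.

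Ighg3 encodes the constant part of IgG3, a class that mouse B cells make early against polysaccharides. Its probe set 10403046 read 0.28, 0.32, 0.16 and 0.05 in tolerant samples 1 to 4, against 0.38, 0.65, 0.25 and 0.02 in rejecting samples 1 to 4. Its probe set 10403015 read 0.18, 0.22, 0.21 and 0.29 in tolerant samples, against 0.13, 0.25, 0.23 and 0.60 in rejecting samples. Both overlapped between the groups over the 8 arrays. The probe set listed for Ighm and Igha together, 10403069, read 0.14, 0.19, 0.11 and -0.03 in tolerant samples, against 0.07, 0.25, -0.10 and -0.09 in rejecting samples, near the bottom of the scale in all of them.

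Igkc, the constant segment of every kappa light chain, was lower in tolerant than in rejecting samples within each set of arrays, but the difference did not pass the test. It read 0.72 and 0.44 on tolerant arrays 3 and 4, against 0.90 and 1.31 on rejecting arrays 3 and 4. In the other set it read 0.65 and 0.65 on tolerant arrays 1 and 2, against 0.68 and 0.86 on rejecting arrays 1 and 2. The value of 1.31 in rejecting sample 4 was above that array's line of 1.14, and the other 7 values were below theirs. The groups did not overlap within either set, although over all 8 arrays they did. Over all 8 arrays Igkc averaged 0.62 ± 0.12 in tolerant and 0.94 ± 0.26 in rejecting samples (SD, n = 4 each). The difference was -0.32, its standard error 0.14 and its 95% interval -0.65 to 0.0042. By limma its unadjusted p was 0.0524 and its adjusted p 1.00. With 1 array left out the difference ran from -0.41 (without rejecting sample 1) to -0.20 (without rejecting sample 4). For the arrays numbered 3 and 4 the difference was -0.52, with standard error 0.19 (unadjusted p = 0.0478 and adjusted p = 0.741 by limma). With 1 array left out it was smallest in size without rejecting sample 4, at -0.32. Blocking on the replicate number gave an unadjusted p of 0.0762 by limma. For the arrays numbered 1 and 2 the difference was -0.12, with standard error 0.15 (adjusted p = 0.960 by limma). With 1 array left out it was smallest in size without rejecting sample 2, at -0.03. A gap between the groups in the same direction in both sets, with tolerant lower, was found for 3.57% of all probe sets and for 62 of the 1184 sensory receptors, so 1 such member among 37 lies near the background. The same holds for Igkv9-120, the 1 member with tolerant higher in both sets, where the share of all probe sets was 2.61%.

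**Figure D2:**
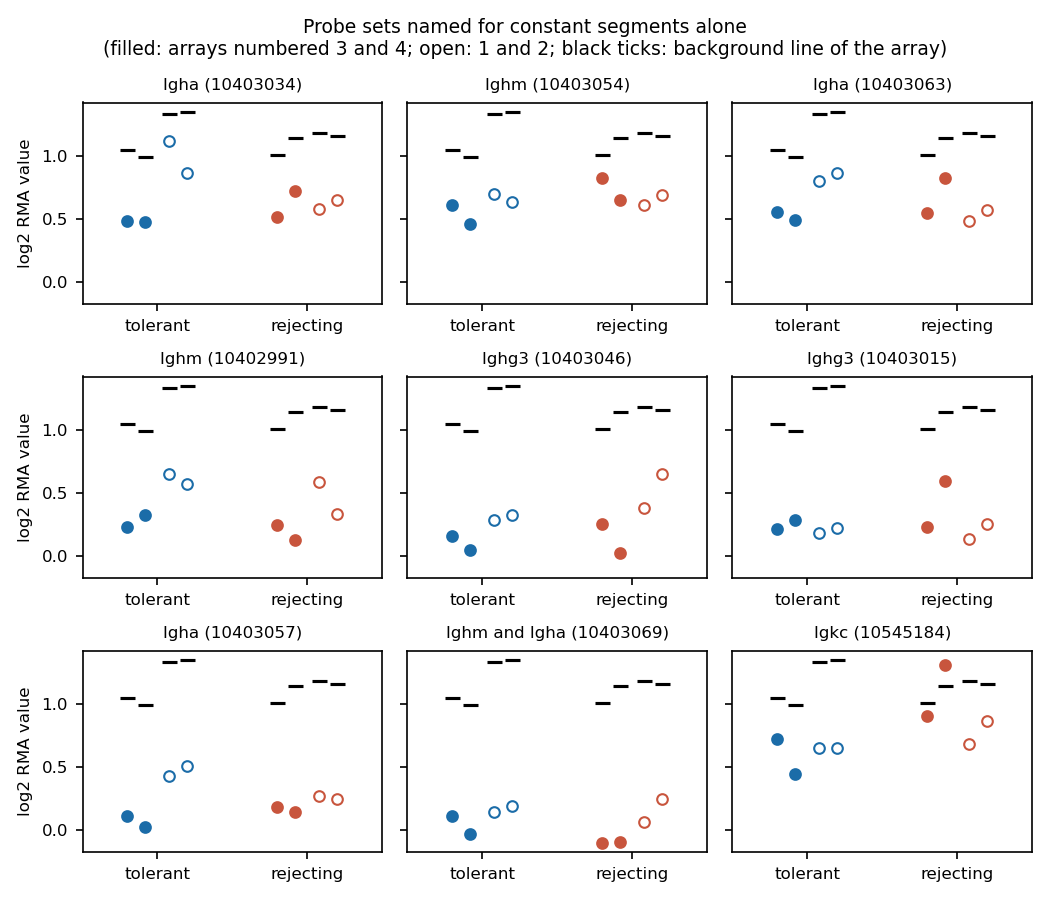
Log2 values of the 9 probe sets that carry constant segment symbols alone, tolerant left of rejecting in each panel (filled, arrays numbered 3 and 4; open, 1 and 2), with each array's background line as a black tick. Igkc in rejecting sample 4, at 1.31, is the 1 point above its tick.

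The lambda chain, the rarer light chain of the mouse, had 2 probe sets, both listed for Iglc1 with the variable segments Iglv1 and Iglv2. Probe set 10438415 read 0.55, 0.29, 0.76 and 0.31 in tolerant samples 1 to 4, against 0.51, 0.55, 0.61 and 0.68 in rejecting samples 1 to 4. Probe set 10438405 read 0.61, 0.84, 0.44 and 0.35 in tolerant samples, against 0.34, 0.48, 0.50 and 0.61 in rejecting samples. Neither reached the background line on any array, and both overlapped between the groups over the 8 arrays. Within the sets 10438405 did not overlap. Tolerant was higher on the arrays numbered 1 and 2, as for 17.3% of all probe sets. It was lower on those numbered 3 and 4, as for 22.5%.

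Variable segments encode the antigen-binding end of each chain, and a B cell uses 1 of them per chain. Among the heavy chain members with a variable segment, the 4 with the highest mean were 10403009 (Ighv3-6 and Igha), 10403060 (Ighv1-72), 10403043 (Ighv1-72 and Igha) and 10403018 (Ighg3, Ighv1-33 and Ighv1-26). The first read 0.51, 0.69, 0.39 and 0.48 in tolerant samples 1 to 4, against 0.59, 0.63, 0.46 and 0.33 in rejecting samples 1 to 4. Ighv1-72 read 0.35, 0.48, 0.52 and 0.31 in tolerant samples, against 0.54, 0.58, 0.46 and 0.81 in rejecting samples. Both overlapped between the groups over the 8 arrays and lay below the line throughout. On the arrays numbered 1 and 2 Ighv1-72 was lower in tolerant samples without overlap, as were 16.7% of all probe sets. Probe set 10403043 read 0.60, 0.77, 0.44 and 0.14 in tolerant samples, against 0.62, 0.36, 0.44 and 0.31 in rejecting samples. Probe set 10403018 read 0.26, 0.18, 0.36 and 0.48 in tolerant samples, against 0.57, 0.40, 0.40 and 1.01 in rejecting samples. In it the highest value came from rejecting sample 4, as for Igkc, and stayed under that array's line. The other 4 heavy chain members with a variable segment ranged from -0.15 (Igh-VS107 in tolerant sample 4) to 0.65 (Igh-VS107 in rejecting sample 2).

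Igkv4-55 was the 1 member above the line on at least 2 arrays, and its values overlapped between the groups and between the sets of arrays. Of the 1184 sensory receptors 20 were above the line on at least 2 arrays, as were 7264 of all 35556 probe sets. Igkv4-55 read 0.77, 2.52, 2.63 and 1.32 in tolerant samples 1 to 4, against 1.52, 1.02, 2.48 and 1.43 in rejecting samples 1 to 4. It was above the line in tolerant samples 2, 3 and 4 and in rejecting samples 1, 3 and 4. The 3 values near 2.5 came from tolerant samples 2 and 3 and rejecting sample 3, and the groups overlapped within each set. Its mean was 1.81 ± 0.91 in tolerant and 1.61 ± 0.62 in rejecting samples (SD, n = 4 each). The difference was 0.19 over all 8 arrays, 0.02 on the arrays numbered 3 and 4 and 0.37 on those numbered 1 and 2, with standard errors of 0.47, 0.57 and 0.61. None passed limma's test. The sign turned on single arrays: with 1 array left out, the difference ran from -0.08 to 0.54 over all 8 arrays, from -0.64 to 0.67 on those numbered 3 and 4, and from -0.50 (without tolerant sample 2) to 1.25 (without tolerant sample 1) on those numbered 1 and 2. The annotation of this probe set rests on 1 record. The other 18 kappa members stayed below the line on the arrays with the 3 values near 2.5.

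The naming rule took as the other 3 kappa variable members the probe sets listed alike for Igkv4-59, Igkv4-70 and Igkv4-80, which belong to the same variable segment family as Igkv4-55. Probe set 10545187 read 0.54, 0.85, 0.65 and 0.31 in tolerant samples 1 to 4, against 0.75, 0.72, 0.77 and 0.92 in rejecting samples 1 to 4. Probe set 10545194 read 0.74, 0.67, 0.75 and 0.72 in tolerant samples, against 0.49, 0.66, 0.76 and 0.55 in rejecting samples. Probe set 10545198 read 0.37, 0.58, 0.72 and 0.60 in tolerant samples, against 0.93, 0.45, 0.67 and 0.88 in rejecting samples. All 3 stayed under the line on all 8 arrays, over which the groups overlapped. Their differences over all 8 arrays did not share a sign (-0.20, 0.10 and -0.16). On the arrays numbered 3 and 4 probe set 10545187 was lower in tolerant samples without overlap, as were 22.5% of all probe sets. On those numbered 1 and 2 probe set 10545194 was higher in tolerant samples without overlap, as were 17.3%. The mixed kappa probe set 10545196 (Igkv4-59, Igkv4-72, Igkv4-68 and Igkc) read 0.50, 0.99, 0.68 and 0.60 in tolerant samples, against 0.36, 0.49, 0.62 and 0.61 in rejecting samples. It thus did not share the lower tolerant values of the Igkc probe set, although its annotation holds the same gene.

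The probe set of Igkv6-14 and Igkv6-15 read 0.93, 0.10, 0.30 and 0.29 in tolerant samples 1 to 4, against 1.44, 0.39, 0.34 and 0.44 in rejecting samples 1 to 4. In each group the high value was that of sample 1, and the rejecting one exceeded its line of 1.18. Igkv8-30 read 1.03 in tolerant sample 1, Igkv6-23 read 1.06 in rejecting sample 1 and Igkv4-91 read 1.13 in rejecting sample 2, all under the line. All of these high values fell on arrays numbered 1 and 2. The remaining kappa variable probe sets (9 of 17) ranged from -0.18 (Igkv10-96 in tolerant sample 4) to 0.78 (Igkv10-96 with Igkj1 in tolerant sample 2).

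No immunoglobulin probe set passed the test between tolerant and rejecting samples. Over all 8 arrays limma called 0 of the 37 members at an adjusted p of 0.05, against 0% of the 35556 probe sets tested, and the lowest adjusted p of a member was 1.00. At an unadjusted p of 0.05 it called 0 members, against 2.79% of all probe sets. The difference was above 0 for 18 members and below 0 for 19, and its median was -0.02 among the members and -0.01 among all probe sets, of which 52.3% were below 0. With 1 array left out the member median lay between -0.08 (without tolerant sample 1) and 0.01 (without rejecting sample 1). It was -0.08 over members with 1 symbol. The count of members at an unadjusted p of 0.05 then ran from 0 to 2 (without tolerant sample 2, beside 1160 of 35556 probe sets). After quantile normalization again it was 1, beside 1078 of 35556. Among probe sets with 1 symbol it was 1, beside 613 of 21218. The members with the smallest p were Igkc, then 10403018 (-0.27, standard error 0.15), Ighv1-72 (-0.18, standard error 0.11) and 10545187 (-0.20, standard error 0.13) among those lower in tolerant samples. Among those higher they were Igkv9-120 (0.14, standard error 0.08), 10545196 (0.17, standard error 0.13), 10545194 (0.10, standard error 0.09) and 10403048, listed for Ighv1-72 and Igha (0.11, standard error 0.11). No member separated the groups over all 8 arrays, against 0.911% of all probe sets with tolerant higher and 1.18% with tolerant lower.

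Within the arrays numbered 3 and 4, which carried more signal, most members and most sensory receptors read slightly lower in tolerant samples. limma again called 0 members, against 0% of all probe sets, and 1 member (Igkc) at an unadjusted p of 0.05 against 6.74%. The difference was below 0 for 29 of the 37 members (78.4%) with a median of -0.10. It was below 0 for 927 of the 1184 sensory receptors (78.3%) with a median of -0.09, and for 56.1% of all probe sets with a median of -0.03. After quantile normalization again the shares were 73.0% of the members (median -0.07), 64.8% of the sensory receptors (median -0.04) and 50.8% of all probe sets. The difference between members and receptors was not tested. Without rejecting sample 4 the member median was -0.04. The groups did not overlap for 2 members with tolerant higher and 10 with tolerant lower, against 16.4% and 22.5% of all probe sets. After Igkc, the smallest p among members lower in tolerant samples were those of Igkv10-96 with Igkj1 (-0.26, adjusted p = 0.767 by limma), 10545187 (-0.37, adjusted p = 0.776) and the Ighm probe set 10403054 (-0.20, adjusted p = 0.80). Among members higher they were those of 10403069 (0.14), Igkv9-120 (0.11), the Ighm probe set 10402991 (0.09) and 10545194 (0.08), with adjusted p between 0.823 and 0.902. By chain, the median difference was -0.10 for 16 heavy, -0.09 for 19 kappa and -0.13 for 2 lambda probe sets.

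Within the arrays numbered 1 and 2 the members divided about evenly between the directions. limma called 0 members, against 0% of all probe sets, and 1 member at an unadjusted p of 0.05 against 4.78%. That member was Igkv19-93, which read 0.11 and -0.02 in tolerant samples 1 and 2, against 0.48 and 0.58 in rejecting samples 1 and 2. Its difference there was -0.48 (standard error 0.15, unadjusted p = 0.0262 and adjusted p = 0.958 by limma). Blocking on the replicate number gave an unadjusted p of 0.0525 by limma. It read 0.16 and 0.22 on tolerant arrays 3 and 4, against 0.19 and 0.04 on rejecting arrays 3 and 4, so the direction was not shared. Of the members, 20 were above 0 and 17 below, against 50.1% of all probe sets below, with a member median of 0.01. Of the sensory receptors, 684 of 1184 were above 0, with a median of 0.04. The groups did not overlap for 9 members with tolerant higher and 7 with tolerant lower, against 17.3% and 16.7% of all probe sets. Among the heavy chain constant probe sets 7 of 8 were above 0 on these arrays, where 6 of 8 were below 0 on the arrays numbered 3 and 4. After quantile normalization again these counts were 5 of 8 above 0 and 5 of 8 below 0.

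**Figure D3:**
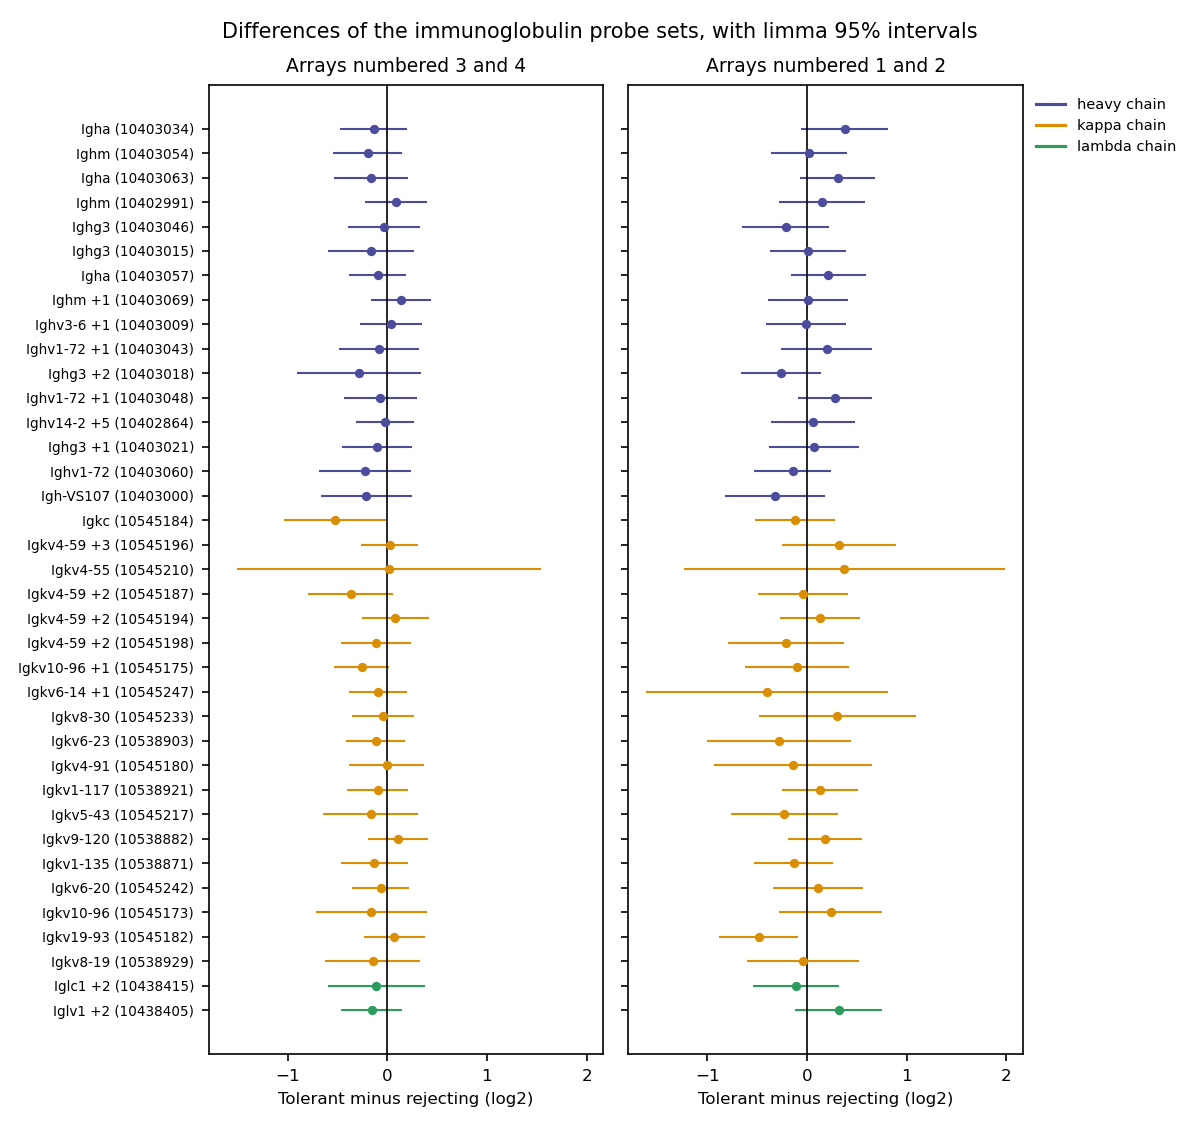
Tolerant minus rejecting difference in log2 value (points) with its 95% interval by limma (bars) for each of the 37 probe sets, on the arrays numbered 3 and 4 (left) and 1 and 2 (right). Nearly all intervals include 0: Igkc on the left, at -0.52, and Igkv19-93 on the right, at -0.48, are the exceptions, and neither passes after adjustment, or without adjustment when the replicate number is a block. A name followed by + and a number has that many further symbols.

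Whether the group difference itself changed between the sets of arrays was tested as an interaction. limma called 0 members, against 0% of all probe sets, and 4 members at an unadjusted p of 0.05 against 6.51%. Those 4 were Igkv19-93 (interaction 0.56, adjusted p = 0.685), the Igha probe sets 10403034 (-0.51, adjusted p = 0.755) and 10403063 (-0.47, adjusted p = 0.762), and the lambda probe set 10438405 (-0.47, adjusted p = 0.762). Whichever array was left out, fewer members passed at an unadjusted p of 0.05 than with all arrays. Such a fit leaves a lone array for 1 group in 1 set. After quantile normalization again 4 members passed, beside 2267 of 35556 probe sets. For Igkc the interaction was -0.40 with a 95% interval of -1.01 to 0.20. No member was thus shown to differ between the groups to another extent in 1 set than in the other.

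The members were not called between the sets of arrays either. Between the arrays numbered 3 and 4 and those numbered 1 and 2, with the group as a term, limma called 0 members, against 5.14% of all probe sets (4.24% higher and 0.894% lower on the arrays numbered 3 and 4). At an unadjusted p of 0.05, 6 members were lower and none was higher, against 10.2% and 13.5% of all probe sets. With 1 array left out the count of members ran from 2 (without tolerant sample 4) to 7 (without rejecting sample 1), beside 6581 and 8222 of 35556 probe sets. After quantile normalization again it was 2, beside 5828 probe sets. The 6 were the Ighm probe set 10402991 (-0.30, standard error 0.09, adjusted p = 0.105), Igkv5-43 (-0.40), the Ighg3 probe set 10403046 (-0.29), Igh-VS107 (-0.35), Igkv1-117 (-0.24) and the Igha probe set 10403057 (-0.25). The difference was below 0 for 27 of 37 members (73.0%) with a median of -0.09, against 87.4% of the sensory receptors with a median of -0.17, and 52% of all probe sets with a median of -0.01.

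Most genes of the B cell list outside the immunoglobulin loci were also below the line. Of all 35556 probe sets 11555 were above the line on any array, as were 49 of the 1184 sensory receptors. Of 19 measured B cell genes 3 were, with 2.63% of their values above the line, against 11.9% for all probe sets. They were Cd37, a surface protein also found on T cells, on 2 arrays, and Ly86 and Cd79a on 1 each. Ms4a1, which encodes CD20, read 0.34, 0.55, 0.18 and 0.11 in tolerant samples 1 to 4, against 0.44, 0.55, 0.30 and 0.31 in rejecting samples 1 to 4. Cd79a, a signalling chain of the B cell receptor, read 0.70, 0.85, 0.41 and 0.34 in tolerant samples, against 0.27, 1.18, 0.55 and 0.31 in rejecting samples, above the line in rejecting sample 2. Its partner Cd79b and the B cell transcription factor Pax5 were above the line on 0 arrays, as was Ms4a1. Cd22, a B cell inhibitory receptor, and H2-Ob, a chain that regulates peptide loading in B cells, read between 0.35 and 0.95 over the 8 arrays and never exceeded the line. The mean over the list ranged from 0.45 to 0.53 in tolerant and from 0.44 to 0.56 in rejecting samples.

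Among 16 plasma cell genes, 4 were above the line on any array, with 12.5% of their values above it, close to the 11.9% of all probe sets. The 3 with the most such arrays are expressed in many cell types. Xbp1, the transcription factor of the unfolded protein response, read 1.55 and 1.58 on tolerant arrays 3 and 4, against 1.42 and 1.54 on rejecting arrays 3 and 4, and was above the line on 5 arrays. Creld2, a chaperone-like protein of the endoplasmic reticulum, was above it on 5 arrays, Ssr4, a subunit of the translocon-associated complex, on 4, and Tnfrsf13b, a receptor for B cell survival ligands, on 2. Of these genes, Jchain, Mzb1, Sdc1 and Prdm1 were above it on 0 arrays. Jchain, which links the units of secreted IgM and IgA, read 0.41, 0.24, 0.29 and -0.0007 in tolerant samples 1 to 4, against 0.54, 0.78, 0.47 and 0.28 in rejecting samples 1 to 4. Its difference was -0.28 with a standard error of 0.13 over all 8 arrays, with overlapping groups (adjusted p = 1.00 by limma). Mzb1, an antibody-folding cofactor, read 0.30 to 0.62, Sdc1, the surface proteoglycan CD138, 0.40 to 0.94, and Prdm1, the factor that drives plasma cell differentiation, 0.26 to 0.63 over the 8 arrays. The mean over the list ranged from 0.61 to 0.67 in tolerant and from 0.60 to 0.71 in rejecting samples.

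Other parts of the antibody pathway showed no called difference between tolerant and rejecting samples either. Of 15 measured genes for immunoglobulin rearrangement and class switching, 5 were above the line on any array, with 11.7% of their values above it, beside 11.9% for all probe sets. They were Tcf3 (6 arrays), a transcription factor of both lymphocyte lineages, Vpreb2 (5 arrays), a surrogate light chain gene, and Igll1, Ung and Xrcc4 (1 array each). Of 12 antibody receptor genes, 2 were above it (6.25% of values): Fcer1g, the signalling chain shared by Fc receptors, and Fcgrt, the neonatal Fc receptor, on 3 arrays each. Trim21, a cytosolic antibody receptor, and Pigr, which carries antibody across epithelia, were above it on 0 arrays. Of 14 genes for B cell help and survival, 3 were above it (8.93% of values): Tnfrsf13c, the receptor for the survival factor BAFF (Tnfsf13b), on 5 arrays, Cd40 on 3 and Tnfrsf13b on 2. BAFF itself read 0.45 to 0.75 over the 8 arrays.

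Tnfrsf13c read 0.84, 1.26, 1.13 and 0.93 in tolerant samples 1 to 4, against 1.29, 1.29, 1.69 and 1.36 in rejecting samples 1 to 4, with no overlap, as for 1.18% of all probe sets with tolerant lower. Its difference of -0.37 had a standard error of 0.14 (unadjusted p = 0.0255 and adjusted p = 1.00 by limma). Cd40, the receptor of CD40L, read 1.35, 0.95, 1.29 and 1.28 in tolerant samples, against 0.97, 0.98, 0.96 and 0.86 in rejecting samples, with overlap, and its difference was 0.27 with a standard error of 0.11 (unadjusted p = 0.0357 and adjusted p = 1.00 by limma). For the arrays numbered 3 and 4, where all 4 lines lay between 0.99 and 1.14, the median differences were -0.04 for the B cell list (7 of 19 above 0), -0.02 for the plasma cell list (7 of 16), -0.08 for rearrangement and switching (5 of 15), 0.05 for antibody receptors (7 of 12) and -0.06 for help and survival (5 of 14), beside -0.03 for all probe sets. limma called 0 genes of these lists in any comparison of tolerant with rejecting samples. At an unadjusted p of 0.05 on these arrays, which 6.74% of all probe sets passed, it called Cd37 and Ly86 (both higher in tolerant samples) of the B cell list, and Cd40 (higher) and Tnfrsf13c (lower) of the help and survival list.

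Markers of the sorted cells and of macrophages varied between arrays. Between the sets of arrays limma called none of either list (lowest adjusted p = 0.0560 for the T cell and 0.0747 for the macrophage list). It called 1 of 19 B cell, 1 of 16 plasma cell and 1 of 12 antibody receptor genes higher on the arrays numbered 3 and 4. So was 1 of 51 T cell receptor segments, and 1 plasma cell gene was called lower. Of all probe sets, 4.24% were called higher and 0.894% lower. The B cell and antibody receptor lists share genes, so their calls may be the same gene. Cd3e read 2.75 and 3.82 on tolerant arrays 3 and 4, against 1.51 and 2.36 on rejecting arrays 3 and 4, while Cd3d was above the line on 0 of 8 arrays. Cd3g was above it on 2 arrays, and Cd5, a T cell surface protein, on 5. Of 10 measured T cell genes, 7 were above the line on any array (20% of values, beside 11.9% for all probe sets). Their median difference on the arrays numbered 3 and 4 was 0.10. Of 10 macrophage genes, 7 were above the line on any array (21.3% of values, beside the same 11.9%). C1qb, a chain of the complement component that binds antibody, read 3.35 and 3.70 on tolerant arrays 3 and 4, against 2.13 and 0.92 on rejecting arrays 3 and 4. Lyz2, the myeloid lysozyme, read 3.30 and 3.14 on tolerant arrays 3 and 4, against 1.41 and 0.23 on rejecting arrays 3 and 4. C1qa and C1qc were above the line on 3 arrays each. Of the 10 macrophage genes, 8 were above 0 on those arrays, with a median difference of 0.43, and limma called none of them (lowest adjusted p = 0.426; 3 genes at an unadjusted p of 0.05). The mean over the macrophage list was 1.41 and 1.57 on tolerant arrays 3 and 4, against 1.01 and 0.52 on rejecting arrays 3 and 4. On the arrays numbered 3 and 4 most macrophage genes read higher in tolerant samples, as did Ly86, without passing the test. Ly86 is a B cell list member that macrophages also express. Igkc read lower in tolerant samples both there and on the arrays numbered 1 and 2. What part macrophages had in the immunoglobulin values was not tested.

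T cell receptor segments, rearranged like immunoglobulin segments but in T cells, had 51 probe sets, all for variable segments. Of their 408 values, 33 were above the line (8.09%), from 13 probe sets, and on the arrays numbered 3 and 4 the count was 24 of 204 (11.8%). The immunoglobulin probe sets had 5 of 148 values above the line on those arrays (3.38%), 4 of them from Igkv4-55. Thus most probe sets of single T cell receptor segments were below the line on all arrays too, in a preparation selected for T cells.

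**Figure D4:**
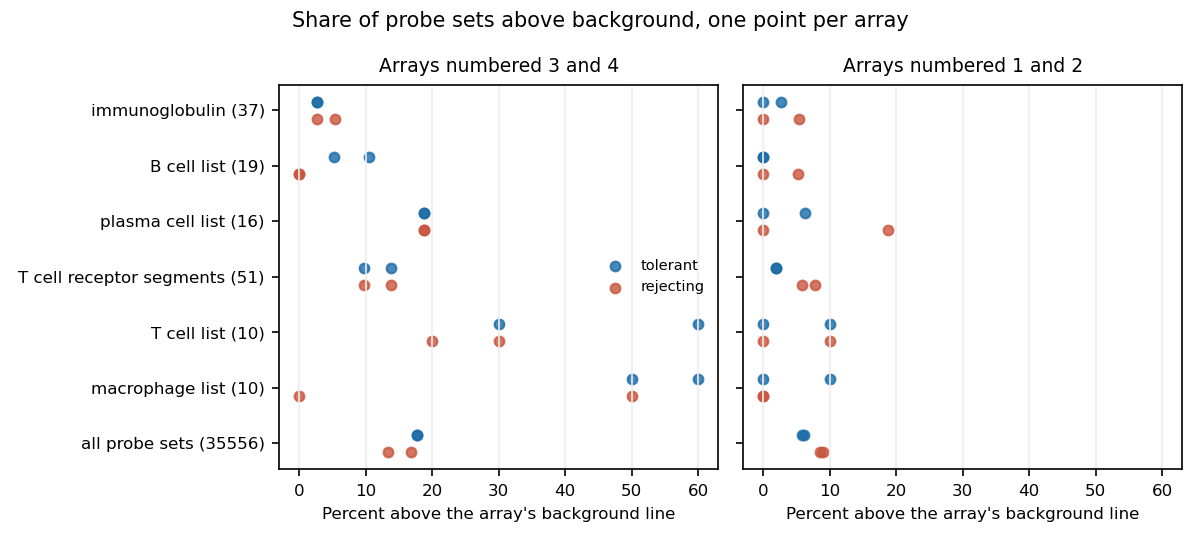
Percent of probe sets above the array's background line, 1 point per array, for the immunoglobulin members, the B cell, plasma cell, T cell and macrophage lists, T cell receptor segments and all probe sets (number of probe sets in brackets), tolerant above rejecting in each row. On the arrays numbered 3 and 4 (left) the immunoglobulin points lie between 2.70% and 5.41%, and all probe sets between 13.3% and 17.7%.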

How the data were processed

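RNA of 4 tolerant and 4 rejecting samples of CD3-positive graft cells was hybridised to Affymetrix arrays. Values of 35556 probe sets were deposited on a log2 scale. Per the submitters' processing notes, the authors used RMA in Affymetrix Expression Console, a method that subtracts background, quantile normalizes and combines the probes of a set. The sources used here do not give the log base, the software version or the genome build. Base 2 was taken from the range, whose top lay between 12.6 and 12.7, and no coordinates are printed. Values of different probe sets share no scale, so each was set against its array's line.

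Groups came from the sample titles, which name tolerant samples and untreated controls, here called rejecting, and number them 1 to 4. As the labels do not name separate mice, p-values measure the spread between samples, which may be technical, and the number of arrays limits the precision. Gene names came from the platform annotation through the GRCm38.p6 gene table (21218 probe sets with 1 symbol, 1881 with several, 12457 with none listed). Tests used limma 3.58.1 in R 4.3.3 (lmFit and eBayes, 2-sided) on all 35556 probe sets. Adjustment was by Benjamini-Hochberg over all of them, with a threshold of 0.05. The fits were tried on simulated data with independent noise and shifts larger than any member difference reported here. That trial does not show how often differences of the size seen here would be found. Plots used Python 3.11.15, pandas 2.3.3 and matplotlib 3.10.9.

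Members, the background line and 7 gene lists (B cell, plasma cell, rearrangement and switching, antibody receptor, help and survival, T cell and macrophage genes) were chosen with earlier results of these data known. Named were all constant segment probe sets, the 4 variable ones per chain with the highest mean, the 4 members with the smallest p in each direction over all 8 arrays and on the arrays numbered 3 and 4, and from each list the 4 genes with the highest mean and set defining genes. Others were named after their values were seen: those above the line, past an unadjusted p, or marking a range. List genes with several probe sets took the one with the highest mean. Some genes of these lists are not reported here.

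Arrays with the same number deviated together from their groups' means, with correlations of 0.400, 0.406, 0.426 and 0.521 for numbers 1 to 4 over all probe sets, all over the bound of 0.1 for treating numbers as pairs. The pairing comes from the data and not from the labels, and arrays of other numbers within a set correlated by 0.370 to 0.528. Alternatives were leaving out each array, the replicate number or the set of arrays as a block, quantile normalization again, centring on the median, a filter on dim probe sets, probe sets with 1 symbol, trend and robust moderation and another background line.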

Additional observations from a re-analysis of the deposited data

Results flagged for a closer look

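In 6 of 144 groups of 4 samples examined (37 members and 35 list genes in each group), 1 sample stood apart from the other 3 by most of the group's range; chance gives about 1 in 20. Among the members, Igkv10-96 with Igkj1 read 0.78 in tolerant sample 2, where the other tolerant samples read 0.30 to 0.35. Igkv6-14 with Igkv6-15 read 1.44 in rejecting sample 1, above its background line, where the other rejecting samples read 0.34 to 0.44. Igkv6-20 read 0.47 in tolerant sample 2, where the others read 0.17 to 0.18. Among the list genes, Fcer1g read 1.86 in rejecting sample 3, above its line, where the others read 0.51 to 0.72. Prdm1 read 0.63 in tolerant sample 2, where the others read 0.44 to 0.45. Cd3d read 0.37 in rejecting sample 2, where the others read 0.53 to 0.54.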

How the results depend on the processing

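Under all alternatives limma called 0 members between tolerant and rejecting samples. With a replicate block for the pairing, it called 0 members in all 3 comparisons, and the member medians stayed at -0.0159, -0.101 and 0.0104; the block changed no adjusted call, but Igkc on the arrays numbered 3 and 4 and Igkv19-93 on those numbered 1 and 2 no longer passed an unadjusted p of 0.05. Requiring signal above the line on at least 2 arrays left 1 member, Igkv4-55, and so a median of 0.195 over all 8 arrays, 0.0153 on the arrays numbered 3 and 4 and 0.374 on those numbered 1 and 2. On the arrays numbered 3 and 4 the member median was -0.0744 after quantile normalization again and -0.138 to -0.0444 with 1 array left out. On those numbered 1 and 2 it was -0.00089 after quantile normalization, 0.00493 after centring, 0.0151 over members with 1 symbol and -0.0045 to 0.0640 with 1 array left out. Leaving out 1 array of a pair assumes that the lone array varies like the others. With the 95th percentile as the line, 16 members lay above it on any array, where 3 did with the 99th, and 13.2% of member values, against 5.07% for the sensory receptors and 27.6% for all probe sets. Over all probe sets, tests of those with 1 symbol called 11 of 21218 on the arrays numbered 3 and 4, where the whole table gave 0, and the count between the sets of arrays was 1826, or 626 after quantile normalization and 810 to 1501 with 1 array left out; no member was among them. Uncalled member differences changed sign for up to 9 of 37 members when 1 array was left out. The cause of these shifts was not tested. With 2 arrays per group within a set, values near background and probes shared between segments, differences of the size seen here cannot be told from the spread.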
